A study of Mus musculus with 11 samples.

Results

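The mitochondrial ribosomal protein genes were examined in RNA-seq data from LSKs (Lin-Sca1+Kit+ bone marrow cells, a fraction that holds hematopoietic stem cells and multipotent progenitors) of mice that differ at the *Trp53* locus. Members were all genes of the count table whose symbol is Mrpl or Mrps followed by a number alone, which gave 74 of 12647 genes, and all 74 entered the test. Symbols with a letter after the number (such as *Mrps18b*) and subunits with other names fall outside this rule and are given separately. There were 3 libraries from each of 3 genotypes on a C57BL/6 background. The p53+/+ mice carry the HUPKI allele, a humanized knock-in that encodes a human/mouse chimeric p53. The p53R248W/+ mice are heterozygous for the R248W missense change, which was placed in that HUPKI allele and is expressed from the endogenous mouse promoter. The p53-/- mice lack p53. The study describes its young mice as 8 to 12 weeks old and tumor free, and no agent was given. The labels do not give the number of animals behind a library, so the p-values measure the spread between these libraries, which may be technical.

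The mitochondrial ribosome translates the few messages encoded by mitochondrial DNA, all of which specify subunits of the oxidative phosphorylation complexes. Its own proteins are encoded in the nucleus, made in the cytosol, and imported. The small subunit reads the message and the large subunit forms peptide bonds, and both hold proteins with a bacterial counterpart beside proteins found only in mitochondria. Hematopoietic stem cells rely on a low rate of protein synthesis and on mitochondrial fitness. The values here are RNA levels of the genes and do not measure the amount of assembled ribosome or its activity.

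By structural group, 24 members belong to the small subunit, of which 15 have a bacterial counterpart and 9 do not. The large subunit is represented by 49 members, 30 with a bacterial counterpart and 19 without. *Mrps30*, despite its symbol, encodes a large subunit protein and is counted there. *Mrps36* encodes a small adaptor of the oxoglutarate dehydrogenase complex rather than a ribosomal subunit, and it stands alone.

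Total counts ranged from 18021375 to 29750702 per library, and the 74 members together took from 0.497% to 0.778% of them. *Trp53* was counted at 125, 207, and 376 CPM (read counts scaled to library size) in p53+/+, at 219, 240, and 235 CPM in p53R248W/+, and at 129, 127, and 112 CPM in p53-/- libraries. The labels do not say which exons the p53-/- allele lacks, so this total does not check it. *Cdkn1a*, the p53 target that encodes the cell cycle inhibitor p21, fell in p53-/- libraries by 2.07 on the log2 scale (SE 0.30, edgeR adjusted p = 0.00914). Of the sort markers, *Kit* was read at 427 to 861 CPM and *Ly6a*, which encodes Sca1, at 149 to 444 CPM. Granulocyte and monocyte markers (13 of 14 tested) summed to 2997 to 8478 CPM in p53+/+, 4450 to 9969 CPM in p53R248W/+, and 2202 to 2615 CPM in p53-/- libraries. Erythroid markers (5 of 11 tested) summed to at most 73.4 CPM in any library. *Mpo* had the highest means of the granulocyte and monocyte list, at 2470 CPM in p53+/+, 4220 CPM in p53R248W/+, and 1250 CPM in p53-/-. Whether these markers came from other cells or from the LSKs themselves was not tested, nor was their part in the members' values. In bulk samples fewer cells of a type and less RNA per cell cannot be told apart.

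All 74 genes were counted in LSKs, in a table from which genes with few counts had been left out, and no background level was measured. Mean levels over the 9 libraries ran from 22.3 CPM to 186 CPM, with a median of 80.3 CPM. Per kilobase of gene length in p53+/+ libraries, the highest level belonged to *Mrpl33* at 290 ± 60.7 CPM per kb (SD, n = 3), a small protein with a bacterial counterpart. *Mrpl42*, a mitochondria-specific large subunit protein, followed at 251 ± 52.4 CPM per kb, within the spread of *Mrpl33*. *Mrpl28* at 170 ± 34.3, *Mrpl12* at 169 ± 48.6, and *Mrpl18* at 163 ± 35.9 CPM per kb came next and could not be ordered among themselves. *Mrpl12* encodes the stalk protein to which translation factors are recruited.

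The lowest levels per length belonged to *Mrps25* at 9.27 ± 1.37 and to *Mrpl1* at 10.5 ± 1.31 CPM per kb, which differed by less than their spread. *Mrpl1* encodes the protein of the mobile L1 stalk. *Mrpl19* at 15.6 ± 2.29, *Mrps31* at 18.2 ± 2.31, and *Mrpl11* at 20.7 ± 4.48 CPM per kb stood just above them. The lengths used here are those of the deposited table and run from 407 bases (*Mrps21*) to 6712 bases (*Mrpl17*), with the 2 lowest members at 6065 bases (*Mrps25*) and 4188 bases (*Mrpl1*). *Mrps36* was read at 30.5 ± 5.69 CPM per kb and *Mrps30* at 64.9 ± 8.55 CPM per kb.

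**Figure D1:**
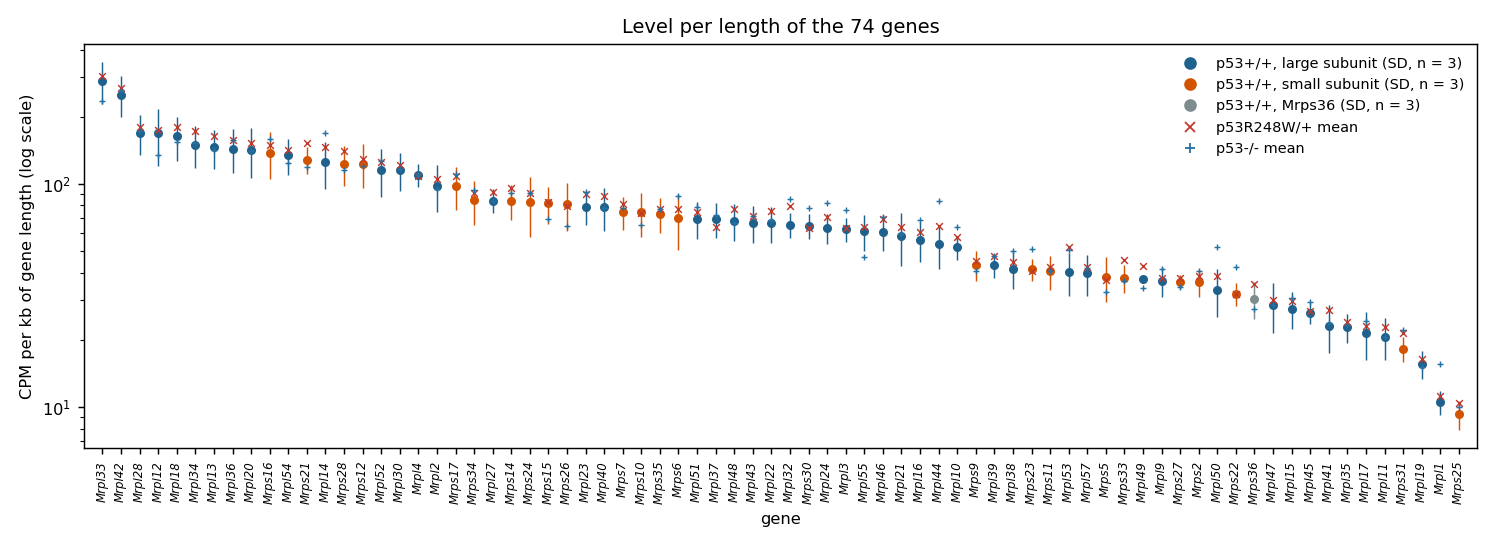
Level of each of the 74 genes per kilobase of gene length (log axis), ordered by the p53+/+ mean; points with bars are p53+/+ means with SD (n = 3), crosses and plus signs are the means of the other genotypes. Levels fall from 290 CPM per kb for Mrpl33 to 9.27 CPM per kb for Mrps25, and small and large subunit genes are interleaved.

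The most visible pattern was that the members moved together from library to library, within as well as between genotypes. Summed over the 74 genes, the level was 6167, 4849, and 6900 CPM in p53+/+ libraries 1 to 3. It was 8321, 5622, and 5387 CPM in p53R248W/+ libraries, and 6179, 7167, and 5631 CPM in p53-/- libraries. The highest and the middle libraries thus came from different genotypes, and the 3 genotypes overlapped. Genotype means were 5972 ± 1039 CPM in p53+/+, 6443 ± 1630 CPM in p53R248W/+, and 6326 ± 778 CPM in p53-/- (SD, n = 3).

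p53R248W/+ library 1 held the highest value of 53 of the 74 members, and 72 members lay above their own median there. p53+/+ library 2 held the lowest value of 53 members, and 0 members lay above their own median there. The median log2 deviation of the members from their mean was 0.45 in p53R248W/+ library 1 and -0.33 in p53+/+ library 2, and it lay between -0.20 and 0.21 in the other 7 libraries. For 73 of 74 members, the widest range over the 3 libraries of a genotype exceeded the range of the 3 genotype means. The median log2 range was 0.54 within p53+/+, 0.67 within p53R248W/+, and 0.36 within p53-/-, against 0.18 between the genotype means. A mean of 3 libraries varies less than a single library, so the range of means is narrower in part by construction. The same count was not made over all genes, so it does not set the members apart.

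**Figure D2:**
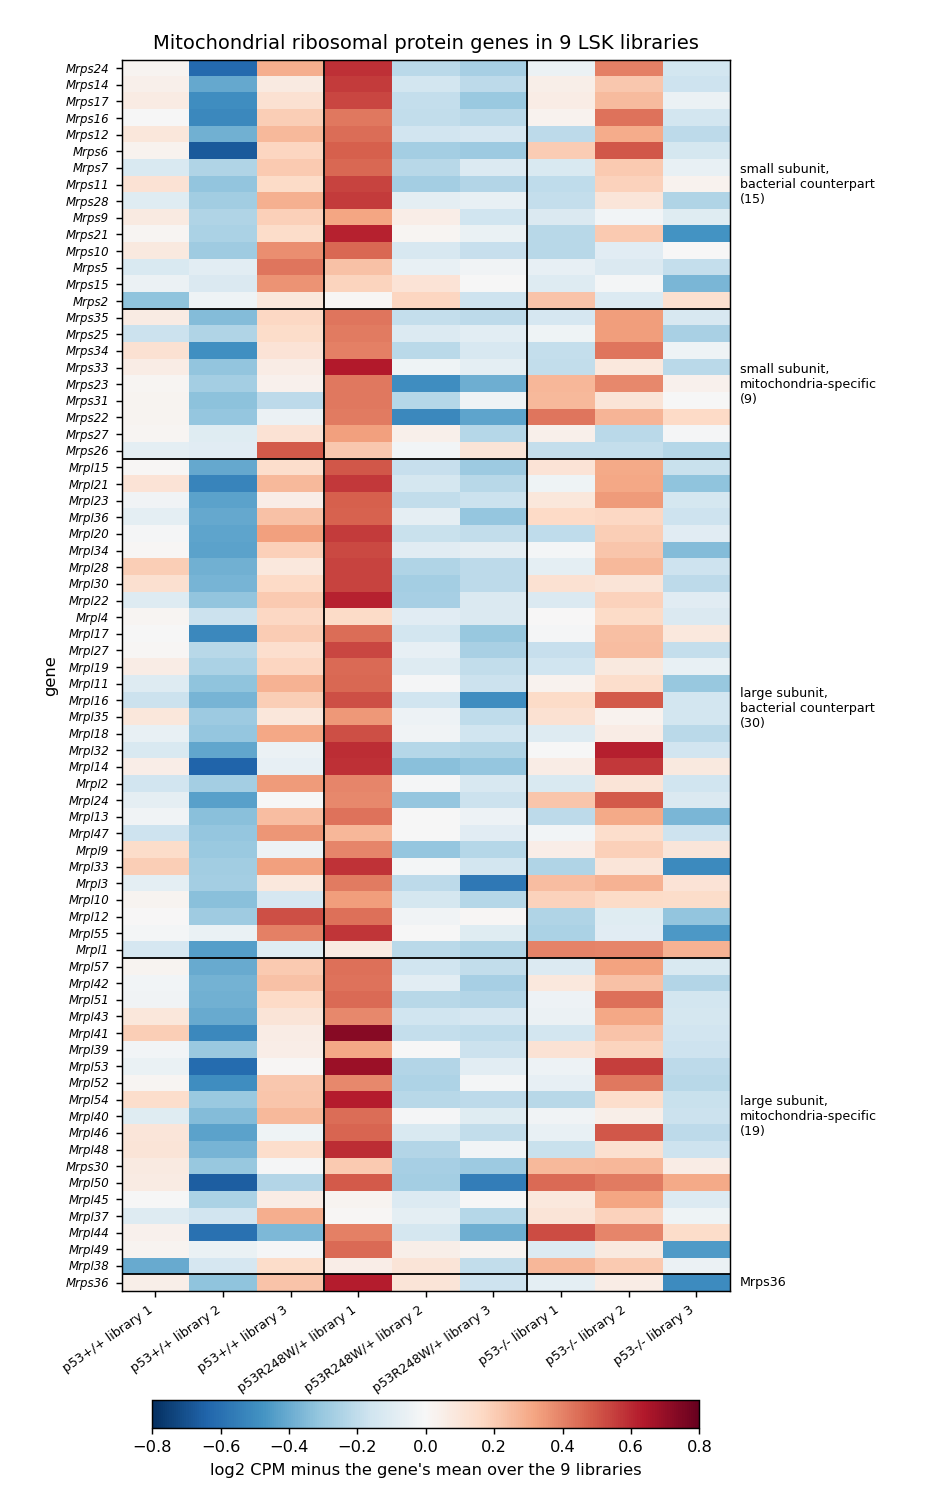
Each row is 1 of the 74 genes and each column 1 library; the color is log2 CPM minus the gene's mean over the 9 libraries, and rows are grouped by subunit and ordered within a group by correlation with the other members. p53R248W/+ library 1 is high and p53+/+ library 2 is low in nearly every row, with 53 members at their highest and 53 at their lowest there.

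Each member was set against the summed level of the other members over the 9 libraries, which share depth and scaling. The correlation r had a median of 0.91, and 52 of 74 members lay above 0.8. Of the 12551 other genes, 6.81% lay above 0.8 against the members' sum, with a median of -0.07. *Mrps24* (0.99), *Mrpl15* (0.98), and *Mrps14* (0.98) followed the sum most closely, and all 3 have a bacterial counterpart. The lowest values were those of *Mrps2* (-0.01), *Mrps26* (0.38), *Mrpl38* (0.40), *Mrpl1* (0.50), and *Mrps15* (0.53). *Mrps2* was read at 63.6, 77.9, and 84.8 CPM in p53+/+, at 80.0, 89.7, and 70.9 CPM in p53R248W/+, and at 93.2, 73.7, and 86.9 CPM in p53-/- libraries. It was not raised in p53R248W/+ library 1 and not lowered in p53+/+ library 2.

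Both subunits kept step. The ratio of the summed large subunit level to the summed small subunit level lay between 2.37 and 2.51 in all 9 libraries, while the sums themselves differed up to the gap between 3397 and 5872 CPM for the large subunit and between 1435 and 2415 CPM for the small subunit. The mean ratio was 2.39 ± 0.04 in p53+/+, 2.41 ± 0.04 in p53R248W/+, and 2.47 ± 0.06 in p53-/- (SD, n = 3). The ranges of the 3 genotypes overlapped.

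**Figure D3:**
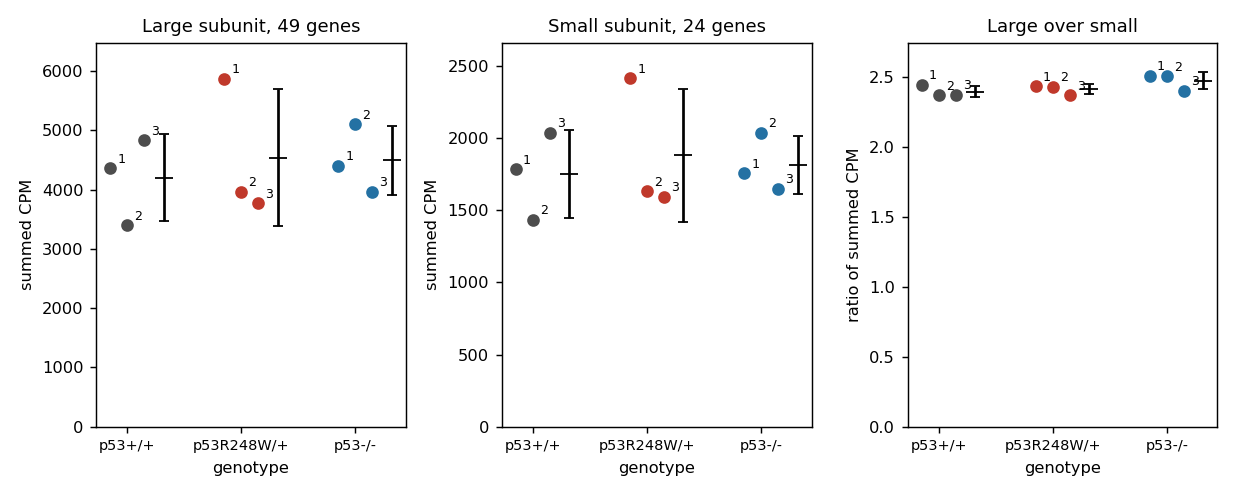
Summed CPM of the 49 large subunit genes and of the 24 small subunit genes, and their ratio, in each library (numbered points), with the genotype mean and SD (n = 3) beside them; all axes start at 0. The sums spread widely within each genotype, while the ratio stays between 2.37 and 2.51.

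The other genes with a known tie to the members followed the same order of libraries to different degrees. The 80 cytosolic ribosomal protein genes had a median r of 0.89 with the members' sum and the 77 nuclear oxidative phosphorylation genes a median of 0.91. The 27 genes of mitoribosome assembly and rRNA modification had a median of 0.49, the 17 mitochondrial translation factors 0.33, and the 25 cell division genes -0.02. Of these lists, the protein components of ribosomes and of respiratory complexes had the highest medians, and the values describe 9 libraries only.

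Some library properties differed where the members' sum was highest or lowest, and their part in it was not tested. p53R248W/+ library 1 had the highest total count (29750702) and the lowest scaling factor (0.935). Total count did not follow the sum throughout, since p53+/+ library 3 was among the 3 highest sums and had the lowest count (18021375). Genes shorter than 2000 bases were shifted by a median of 0.30 in that library and by -0.19 in p53+/+ library 2, while genes of 2000 bases or longer were shifted by -0.13 and 0.14. Among the members, the 12 of 2000 bases or longer moved by 0.44 and -0.36 in these libraries, and the 62 shorter ones by 0.45 and -0.32. *Kit*, the receptor for stem cell factor and one of the sort markers, ran opposite to the sum at both ends. It was read at 427, 507, and 493 CPM in the 3 libraries with the highest sums (p53R248W/+ library 1, p53+/+ library 3, and p53-/- library 2), at 861 CPM in p53+/+ library 2 with the lowest sum, and at 630 to 807 CPM in the other 5. *Ly6a*, the other sort marker, did not share this order. It was read at 360, 149, and 444 CPM in the 3 libraries with the highest sums and at 219 CPM in p53+/+ library 2. *Ddx3y*, a Y-linked gene, was read at 33.6 CPM in p53+/+ library 2 and at 25.1 and 64.9 CPM in p53R248W/+ libraries 2 and 3, and at most at 0.11 CPM in the other 6. Those 3 libraries had the 3 lowest sums of the members. Among the 6 libraries without *Ddx3y*, the sums were 6167 and 6900 CPM in p53+/+, 8321 CPM in p53R248W/+, and 5631 to 7167 CPM in p53-/-.

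The comparison of p53-/- with p53+/+ asks how loss of p53 relates to the members' levels. None of the 74 members passed an adjusted p of 0.05 in edgeR, while 3.50% of all genes tested did. At an unadjusted p below 0.05 there were 3 members (*Mrpl1*, *Mrpl44*, and *Mrpl50*), beside 23.4% of all genes. limma-voom called 0 members beside 2.35% of all genes, and DESeq2 called 1 member, *Mrpl1*, beside 12.3% of all genes. The median log2 fold change of the members was 0.06 with 49 of 74 above 0, beside a median of -0.00 over all genes. It was 0.06 for the small subunit (14 of 24 above 0) and 0.08 for the large subunit (35 of 49 above 0), with 0.13 for the mitochondria-specific large subunit genes (15 of 19 above 0). Without p53+/+ library 2 the members' median was -0.07 with 28 above 0, and without p53-/- library 2 it was -0.05 with 30 above 0. With the level of *Ddx3y* as a covariate it was -0.14 with 19 above 0.

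*Mrpl1* kept the library order of the members' sum within p53+/+ and within p53R248W/+, but not within p53-/-. It was read at 46.5, 37.7, and 47.7 CPM in p53+/+, at 53.5, 43.9, and 43.1 CPM in p53R248W/+, and at 67.1, 66.8, and 61.8 CPM in p53-/- libraries. All 3 p53-/- values lay above all 6 others. The log2 fold change was 0.57 (SE 0.17, 95% interval 0.20 to 0.94), with an edgeR p of 0.00597 and an adjusted p of 0.0770. DESeq2 gave an adjusted p of 0.0213, and over the 16 alternatives the adjusted p ran from 0.0213 to 0.272. The 100 bases before the start of its curated RefSeq transcripts (GRCm38.p6, chr5:96210015-96210114, plus strand, 5′ to 3′) are shown as those of the member with the smallest p-value. Predicted transcripts start further upstream, so the annotated gene begins at 96209498 and holds this stretch, shown with GC box letters (GGGCGG on either strand) in capitals.
Mrpl1: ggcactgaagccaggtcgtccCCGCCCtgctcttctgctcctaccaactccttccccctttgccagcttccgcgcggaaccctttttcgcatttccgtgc

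*Mrpl44* encodes a large subunit protein with an RNase III-like fold. Its levels were 95.0, 61.4, and 72.3 CPM in p53+/+, 123, 84.2, and 70.9 CPM in p53R248W/+, and 133, 122, and 103 CPM in p53-/- libraries. The p53-/- values lay above the p53+/+ values and overlapped with p53R248W/+ through library 1. The log2 fold change against p53+/+ was 0.64 (SE 0.23, edgeR adjusted p = 0.124). Its exons overlap those of *Wdfy1* on the opposite strand. *Wdfy1* differed by -2.99 on the log2 scale in the same comparison (edgeR adjusted p = 0.0236), and the part of the overlap in the *Mrpl44* counts was not tested. The 100 bases before the *Mrpl44* start (GRCm38.p6, chr1:79775918-79776017, plus strand, 5′ to 3′) are shown for comparison with *Mrpl1*, with the letters GCGCANGCG of the NRF1 core in capitals, a motif that was not found in the *Mrpl1* window.
Mrpl44: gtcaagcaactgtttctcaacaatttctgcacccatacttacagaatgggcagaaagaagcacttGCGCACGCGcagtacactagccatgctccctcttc

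*Mrpl50*, another mitochondria-specific large subunit gene, showed the same order. It was read at 87.3, 52.9, and 70.8 CPM in p53+/+, at 117, 69.1, and 56.8 CPM in p53R248W/+, and at 114, 111, and 103 CPM in p53-/- libraries. The log2 fold change against p53+/+ was 0.64 (SE 0.26, edgeR adjusted p = 0.170). *Mrpl14* (0.44) and *Mrps22* (0.40), a small subunit gene with no bacterial counterpart, completed the 5 largest values.

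In the other direction, *Mrpl55* had the smallest value, -0.39 (SE 0.22, edgeR adjusted p = 0.307). It was read at 57.3, 55.7, and 76.7 CPM in p53+/+, at 86.0, 57.8, and 54.1 CPM in p53R248W/+, and at 48.6, 54.4, and 42.1 CPM in p53-/- libraries. *Mrps26* (-0.34), *Mrpl12* (-0.33), *Mrpl33* (-0.30), and *Mrps15* (-0.24) followed. In all, 8 members had every p53-/- library above every p53+/+ library, beside 15.4% of all genes. These were *Mrpl1*, *Mrpl3*, *Mrpl10*, *Mrpl14*, *Mrpl44*, *Mrpl50*, *Mrps22*, and *Mrps23*. The reverse held for 2 members, *Mrpl55* and *Mrps26*, beside 16.0% of all genes.

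**Figure D4:**
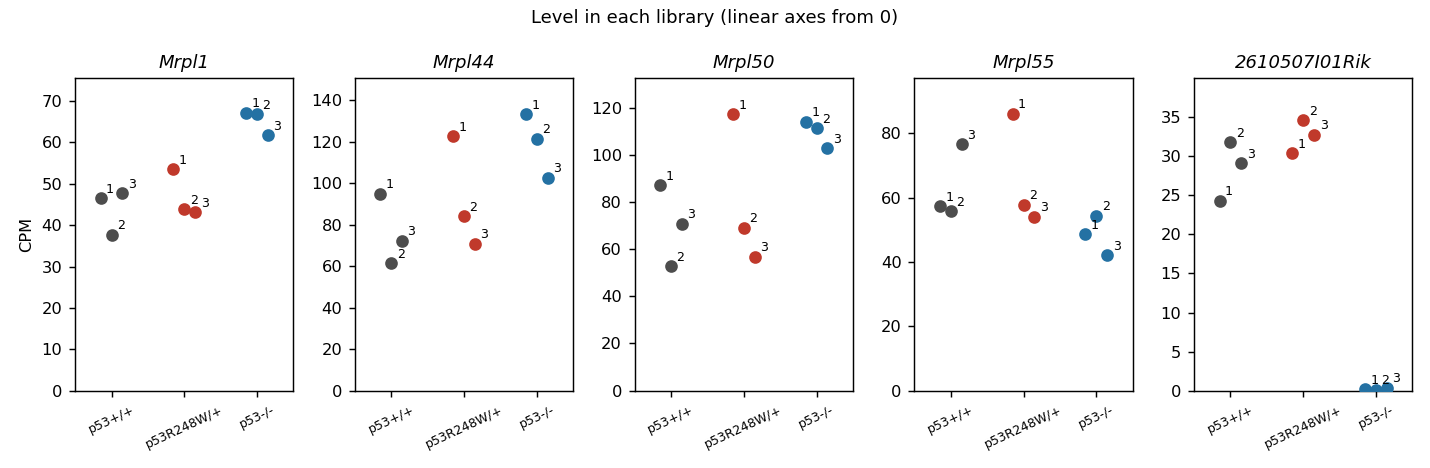
CPM in each library (numbered points) for Mrpl1, Mrpl44, Mrpl50, Mrpl55, and 2610507I01Rik, the gene that starts opposite Mrpl55; linear axes from 0. The 3 p53-/- values of Mrpl1 lie above the other 6, and 2610507I01Rik is at most at 0.39 CPM in p53-/- libraries while Mrpl55 is at 42.1 to 54.4 CPM there.

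The comparison of p53R248W/+ with p53+/+ asks about the heterozygous missense change. No member passed an adjusted p of 0.05 in edgeR, DESeq2, or limma-voom, and 0 reached an unadjusted p below 0.05 in edgeR. Of all genes, 0.00792% (1 gene) passed in edgeR, 0.0475% in DESeq2, and 0.00792% in limma-voom, and 0.958% reached the unadjusted p. The members' median log2 fold change was 0.11 with 66 of 74 above 0, beside 0.01 for all genes. It was 0.10 in the small subunit (19 of 24 above 0) and 0.11 in the large subunit (46 of 49 above 0).

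This small upward shift rested on single libraries. Without p53R248W/+ library 1 the median was -0.13 and 6 of 74 members lay above 0, and without p53+/+ library 2 it was -0.03 with 30 above 0. Without p53+/+ library 3 it was 0.23 with all 74 above 0. With a trend on gene length removed from each library it was 0.02 with 46 above 0, and with the level of *Ddx3y* as a covariate it was 0.28 with 73 above 0. The largest values were those of *Mrpl53* (0.38), *Mrpl32* (0.28), *Mrpl44* (0.28), *Mrps33* (0.27), and *Mrps21* (0.25), and the smallest those of *Mrpl37* (-0.12), *Mrps5* (-0.04), *Mrps26* (-0.03), *Mrps30* (-0.03), and *Mrps23* (-0.02). All had an edgeR adjusted p of 1.00. Every p53R248W/+ library lay above every p53+/+ library for 1 member, *Mrpl49* (0.20), beside 2.66% of all genes, and below for 0 members, beside 2.38%.

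The comparison of p53R248W/+ with p53-/- sets the missense change against loss of p53. Here too 0 members passed an adjusted p of 0.05 in edgeR, and DESeq2 and limma-voom called 0, beside 3.44% of all genes in edgeR, 10.5% in DESeq2, and 2.64% in limma-voom. The single member at an unadjusted p below 0.05 was *Mrpl1*, at -0.48 (SE 0.17, edgeR adjusted p = 0.135), beside 21.0% of all genes. The members' median was 0.05 with 42 of 74 above 0, and the median of all genes was 0.02. The small subunit had a median of 0.06 (14 of 24 above 0) and the large subunit 0.01 (27 of 49 above 0).

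Without p53R248W/+ library 1 the median was -0.22 with 13 of 74 above 0. edgeR then called 5 members lower in p53R248W/+ (*Mrpl1*, *Mrpl3*, *Mrpl50*, *Mrps22*, and *Mrps23*), which is 6.76% of the members beside 12.3% of all genes. With *Ddx3y* as a covariate the median was 0.40 with 69 above 0, and 35 members reached an unadjusted p below 0.05 beside 21.4% of all genes, with 0 members past the adjusted threshold in edgeR. With the length trend removed the median was -0.06 with 25 above 0. With all libraries, *Mrpl50* was at -0.43, *Mrps22* at -0.40, *Mrpl44* at -0.36, and *Mrps23* at -0.33, and none passed. The largest values were those of *Mrpl55* (0.45), *Mrps36* (0.38), *Mrpl33* (0.37), *Mrpl12* (0.37), and *Mrps21* (0.36). Every p53R248W/+ library lay above every p53-/- library for *Mrpl12*, *Mrps5*, *Mrps15*, and *Mrps26*, which is 4 members beside 12.1% of all genes, and below for *Mrpl1* alone, beside 12.0%.

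The 3 comparisons share libraries, so their values are not independent. The median 95% interval of a member spanned 0.49 to either side in p53-/- against p53+/+. Among the 6441 other genes with a mean level between 22.3 and 186 CPM, 290 passed in that comparison, the smallest of them at an absolute log2 fold change of 0.64 and the median at 1.07. The largest absolute value of a member was 0.64.

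**Figure D5:**
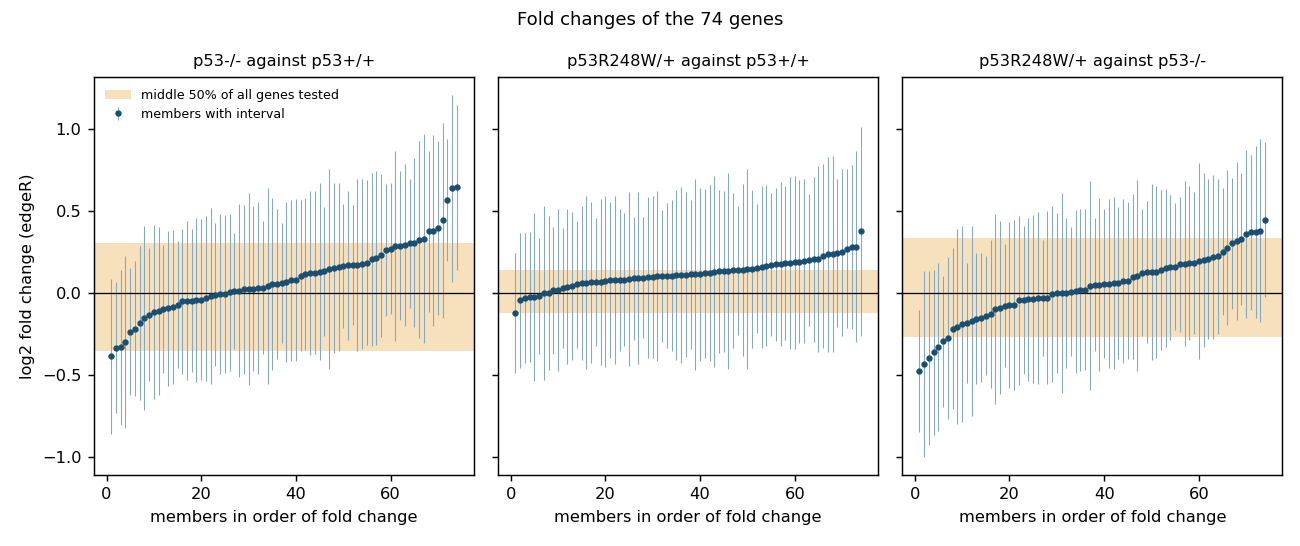
Log2 fold changes of the 74 genes from edgeR with 95% intervals, in order of size, in the 3 comparisons; the band holds the middle 50% of all genes tested. Nearly all intervals include 0, and the p53R248W/+ against p53+/+ values lie slightly above 0 with a median of 0.11.

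Mitoribosomal subunits under other symbols were examined in the same way. Of 10 listed genes, 9 are in the table outside the 74 members. edgeR called 0 of them in any comparison, beside 3.50% of all genes in p53-/- against p53+/+. The shares were 0.00792% in p53R248W/+ against p53+/+ and 3.44% in p53R248W/+ against p53-/-. With 9 genes, 0 calls does not set this list apart from all genes. Their medians were 0.02 in p53-/- against p53+/+, 0.07 in p53R248W/+ against p53+/+, and 0.10 in p53R248W/+ against p53-/-. The 2 with the largest absolute values in p53-/- against p53+/+ were *Ict1*, a ribosome rescue factor built into the large subunit, at -0.32, and *Ptcd3*, an RNA-binding small subunit protein, at -0.26.

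Among genes that act around the ribosome, 3 passed in edgeR in at least 1 comparison. Of all genes, 3.50% passed in p53-/- against p53+/+ and 3.44% in p53R248W/+ against p53-/-. *Trub2*, a pseudouridine synthase needed for mitochondrial RNA modification, was read at 39.6 ± 4.84 CPM in p53+/+, 36.5 ± 1.37 CPM in p53R248W/+, and 17.4 ± 6.88 CPM in p53-/- (SD, n = 3). It fell by 1.18 on the log2 scale in p53-/- against p53+/+ (SE 0.25, edgeR adjusted p = 0.0315), and it was the 1 called gene of 27 in assembly and rRNA modification. The list's median was 0.23 with 22 of 27 above 0, and its next largest values were *Fastkd2* (0.75) and *Ybey* (0.74), which did not pass. *Mtif2*, the mitochondrial initiation factor that places the first transfer RNA, was read at 37.4 ± 4.17 CPM in p53+/+, 41.9 ± 1.68 CPM in p53R248W/+, and 23.6 ± 3.34 CPM in p53-/-. It was higher in p53R248W/+ than in p53-/- by 0.83 (SE 0.18, edgeR adjusted p = 0.0325), and it was at -0.67 in p53-/- against p53+/+ (edgeR adjusted p = 0.0596). The 17 translation factors had a median of -0.13 in that comparison, with 7 above 0.

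Among 12 transcription regulators of mitochondrial genes, *Mycn*, a MYC family factor expressed in stem cells, was the gene that passed. It was read at 76.4 ± 9.26 CPM in p53+/+, 71.1 ± 9.97 CPM in p53R248W/+, and 135 ± 12.2 CPM in p53-/- (SD, n = 3). The difference was 0.82 against p53+/+ (SE 0.17, edgeR adjusted p = 0.0294), and p53R248W/+ was lower than p53-/- by 0.92 (a log2 fold change of -0.92, edgeR adjusted p = 0.0195). The 11 genes of mitochondrial transcription and replication held 0 calls by edgeR in any comparison, where at most 3.50% of all genes were called. Cell division genes had a median of -0.61 in p53-/- against p53+/+ with 0 of 25 above 0, and 3 of them (*Mki67*, *Top2a*, and *Kif11*) fell, beside 3.50% of all genes called. Their summed level was 5929, 6902, and 7475 CPM in p53+/+ and 6010, 4094, and 4456 CPM in p53-/- libraries, so p53-/- library 1 lay among the p53+/+ values and the other 2 below them. In p53-/- against p53+/+, the members' median of 0.06 stood beside 0.25 for the cytosolic ribosomal protein genes (68 of 80 above 0) and 0.05 for the oxidative phosphorylation genes (52 of 77 above 0).

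The members lie on 17 chromosomes, and many share their start region with another gene. On GRCm38.p6, 24 of the 65 members with a RefSeq promoter entry (36.9%) had another gene starting on the opposite strand within 1000 bases, against 1977 of 9876 other genes tested (20.0%). Of these neighbours, 22 were matched to the count table by NCBI gene identifier, so a gene listed there without one could be missed. Of the 22, 2 (*2610507I01Rik* and *Eme1*) passed the edgeR test in p53-/- against p53+/+, beside 3.50% of all genes. Starts are those of the curated transcripts in the promoter table, and predicted transcripts of *Mrpl27* and *Eme1* start elsewhere. The stretches between the opposed starts are shown for these pairs, for *Mrpl50*, whose neighbour is *Zfp189*, and for *Mrpl46* and *Mrps11*, which are both members. Sequences are RefSeq, GRCm38.p6, read 5′ to 3′ on the strand of the member named first, and capitals mark GC box letters (GGGCGG on either strand).
Mrpl55 and 2610507I01Rik, chr11:59202432-59202485, plus strand: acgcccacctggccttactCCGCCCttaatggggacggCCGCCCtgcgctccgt
Mrpl27 and Eme1, chr11:94653744-94653790, plus strand: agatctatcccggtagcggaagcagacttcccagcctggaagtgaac
Mrpl50 and Zfp189, chr4:49521084-49521175, minus strand: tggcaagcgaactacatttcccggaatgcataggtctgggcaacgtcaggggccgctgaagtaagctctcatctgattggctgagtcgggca
Mrpl46 and Mrps11, chr7:78783090-78783130, minus strand: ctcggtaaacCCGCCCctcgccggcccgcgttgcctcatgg

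The sharpest contrast across such a stretch was that of *Mrpl55* and *2610507I01Rik*, whose starts are 55 bases apart. *2610507I01Rik* was read at 24.3, 31.8, and 29.1 CPM in p53+/+, at 30.4, 34.6, and 32.8 CPM in p53R248W/+, and at 0.16, 0.09, and 0.39 CPM in p53-/- libraries. It fell by 7.01 on the log2 scale in p53-/- against p53+/+ (SE 0.38, edgeR adjusted p = 5.65e-06). *Mrpl55*, on the other side of the same 54 bases, differed by -0.39 and did not pass. Both called neighbours, *2610507I01Rik* and *Eme1*, lie on chromosome 11, which also carries *Trp53*. The part of sequence linked to the altered *Trp53* allele in their values was not tested.

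*Eme1*, a subunit of a DNA repair nuclease, starts 48 bases from *Mrpl27* and fell by 1.23 in the same comparison (SE 0.29, edgeR adjusted p = 0.0406). *Mrpl27* was read at 62.6, 53.3, and 68.2 CPM in p53+/+ and at 54.7, 73.9, and 54.7 CPM in p53-/- libraries, and the groups overlapped. *Zfp189*, 93 bases from *Mrpl50*, was at 0.78 (edgeR adjusted p = 0.0901) where *Mrpl50* was at 0.64. *Mrpl46* and *Mrps11*, 42 bases apart, were at 0.21 and 0.01 in p53-/- against p53+/+ and at 0.19 and 0.06 in p53R248W/+ against p53+/+.

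Letters of known promoter motifs were searched on both strands in the 300-base RefSeq windows around the starts of the 65 members. The NRF1 core (GCGCANGCG), read by a regulator of nuclear genes for mitochondrial proteins, was found in 23.1% of members and 15.2% of 9876 other genes tested. The ETS core (CCGGAAG), which GABP can bind, was found in 33.8% and 20.1%. The YY1 core (AAGATGG) was found in 18.5% and 8.43%. Since the ETS letters end and the YY1 letters begin with AAG, a single stretch can count for both. The E-box CACGTG, a MYC binding motif, was found in 6.15% of members against 12.0% of the other genes, and the GC box in 49.2% against 68.2%. These shares describe letters in a window and not bound sites.

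Reads of overlapping genes cannot be told apart where the counting did not use strand, which the sources used here do not state. Exons of 26 members overlap those of a gene on the opposite strand, and exons of 7 overlap those of a gene on the same strand. RefSeq lists pseudogenes described by the member's own name for *Mrpl27*, *Mrpl48*, and *Mrps36*, so their counts are uncertain to the extent that reads were shared. Pseudogenes described in other words were not searched, so the remaining members may have some too.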

How the data were processed

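RNA-seq was analysed in 9 LSK libraries, 3 for each genotype, and the ChIP-seq samples of the same study were not analysed here. The table deposited by the authors gives each gene's length in bases and its raw read counts as whole numbers. The submitters' processing notes name STAR 2.5.2b, featureCounts, Subread 1.5.0, and edgeR with build mm10, without their roles or settings. The methods describe oligo(dT) selection and random hexamers, while the labels name a SMART-Seq v4 kit. Genes with few counts had been left out, since the smallest total over the libraries is 37 counts. The authors also deposited log2 fold changes and p-values of their own comparisons, which were not used.

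In R 4.3.3, edgeR 4.0.16 was used on the counts: low genes were removed by filterByExpr, TMM factors ran from 0.935 to 1.04, and 1 quasi-likelihood fit covered the 9 libraries, with Benjamini-Hochberg adjustment over 12625 genes at 0.05. CPM are TMM-scaled. The standard error is the log2 fold change divided by the square root of F. Log2 deviations are log2 CPM (prior count 2) minus the gene's mean. The fits were tested on simulated data. The libraries of a genotype differed by more than sampling noise.

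The counts were also fitted with limma-voom (limma 3.58.1), with DESeq2 1.42.0, with upper-quartile factors or the DESeq2 size factors in edgeR, with no filter, at least 10 counts in every library, a replicate block, the 6 libraries of the genotypes compared, and leaving out each library in turn. The *Ddx3y* covariate and the removal of a length trend were chosen after seeing the data. Members and gene lists were chosen with earlier results of these data known. Named members are the 5 with the largest and the 5 with the smallest fold change in each comparison, the 5 highest and 5 lowest per length in p53+/+, *Mrps30*, and *Mrps36*. From the other lists, called genes and up to 2 others were named. *Mrps2* and others named for their correlation, for groups that do not overlap, or for a neighbour were chosen after their values were seen. Positions were taken from the RefSeq annotation of GRCm38.p6, the assembly behind mm10. Figures were drawn with matplotlib 3.10.9 in Python 3.11.15.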

Additional observations from a re-analysis of the deposited data

How the results depend on the processing

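In p53-/- against p53+/+, DESeq2 called 1 member (*Mrpl1*), and removing the length trend called 1 (*Mrpl44*, edgeR adjusted p = 0.0496, over all alternatives 0.0496 to 0.338); the cause was not tested. The other alternatives that kept all libraries called 0 members in each comparison. With 1 library left out, calls ranged from 0 to 0, 0 to 0, and 0 to 5 in p53-/- against p53+/+, p53R248W/+ against p53+/+, and p53R248W/+ against p53-/-, the 5 without p53R248W/+ library 1. The medians then ranged from -0.07 to 0.20, -0.13 to 0.23, and -0.22 to 0.17. With *Ddx3y* as a covariate the medians were -0.14, 0.28, and 0.40 with 0 calls, and 8, 12, and 35 members reached an unadjusted p below 0.05 in edgeR (3, 0, and 1 without it), beside 21.4%, 7.46%, and 21.4% of all genes. Every p53-/- library had *Ddx3y* at 0 CPM, so adjusted values against p53-/- lean on the libraries of the other genotype without *Ddx3y*. With the length trend removed the medians were 0.08, 0.02, and -0.06.

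The labels do not say that a replicate number marks a shared batch. Same-number libraries of p53+/+ and p53R248W/+ had correlations of deviations of 0.36, 0.54, and 0.04, against -0.48 to 0.01 for different numbers. Each of these libraries correlated best with its own number, a hint from the data and not the design, though 0.04 lay close to 0.01. Deviations were taken from the genotype mean, so high same-number values push the others down. The different-number values are therefore not an independent contrast. With p53-/- libraries the same-number values ran from -0.11 to 0.13. Since not every pair was above 0.1, the libraries were not treated as paired. The replicate block gave 0 called members in each comparison, with medians of 0.07, 0.10, and 0.00, while calls over all genes rose from 442 to 882 in p53-/- against p53+/+ and from 434 to 672 in p53R248W/+ against p53-/-.

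With 1 library left out, 8 of the named values in p53R248W/+ against p53+/+ changed sign: *Mrpl32* ranged from -0.061 to 0.43, *Mrpl37* from -0.20 to 0.031, *Mrps21* from -0.0096 to 0.37, *Mrps23* from -0.39 to 0.14, *Mrps26* from -0.13 to 0.19, *Mrps30* from -0.22 to 0.062, *Mrps33* from -0.014 to 0.40, and *Mrps5* from -0.16 to 0.16. With the *Ddx3y* covariate, *Mrps5* (0.042), *Mrps26* (0.050), *Mrps30* (0.11), and *Mrps23* (0.12) reversed in that comparison, and *Mrpl50* (0.095), *Mrps22* (0.0067), *Mrpl44* (0.051), and *Mrps23* (0.067) in p53R248W/+ against p53-/-. Over all genes, DESeq2 called 1552, 6, and 1325 genes where edgeR called 442, 1, and 434, and limma-voom 297, 1, and 333. With 1 library left out, edgeR called 37 to 499, 1 to 1, and 77 to 1559 genes. With 3 libraries for each genotype, the median unadjusted interval of a member reached 0.49 to either side in p53-/- against p53+/+.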
